A study of Mus musculus with 13 samples.

Results

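Integrins and laminins were followed at the level of 5-hydroxymethylcytosine (5hmC) in mouse knee cartilage. The genes are those whose symbols name an integrin alpha chain, an integrin beta chain or a laminin alpha, beta or gamma chain, and the regions are those for which the authors' deposited tables give such a gene as the nearest one. RefSeq lists 37 genes of this kind, which are 18 integrin alpha, 8 integrin beta, 5 laminin alpha, 3 laminin beta and 3 laminin gamma genes. Of these, 36 had a region in at least 1 of 3 comparisons, and Itga7 had none. Together they account for 313 of the 181833 regions listed.

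The study asked what TET1, an enzyme that makes 5hmC, does to this mark in osteoarthritis. The libraries compared come from MUT mice (labelled TET-/-) with destabilisation of the medial meniscus (DMM), from WT mice (TET1+/+) with DMM, and from WT mice with sham surgery. DMM makes the knee joint unstable and is a surgical model of osteoarthritis. All mice were male, of strain B6;129S4, and were sampled 6 weeks after surgery. Their age is 3 to 4 months in the design text and 4 to 6 months in the treatment protocol. The labels call the sham joints the control and place them in the opposite leg. They do not say which part of Tet1 is missing in MUT mice or in which cells, nor whether the libraries of a group came from separate animals, so p-values measure the spread between libraries, which may be technical. MUT sham libraries and the control made without the glucosylation step are not analysed here. Values therefore include any background signal, and genotype in the absence of DMM was not tested.

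Integrins are cell surface receptors made of 1 alpha and 1 beta chain, and they tie the cytoskeleton to collagens, fibronectin and laminins outside the cell. Laminins are trimers of an alpha, a beta and a gamma chain that assemble into basement membranes and, around chondrocytes, into the pericellular matrix. 5hmC arises when TET enzymes oxidise 5-methylcytosine, and it is found both in the bodies of active genes and around regulatory elements. The assay reads it at CCGG sites, the recognition sequence of the enzyme MspI, where glucosylated 5hmC protects a fragment end from digestion.

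The sequences shown are from transcription start sites. In MUT DMM against WT DMM cartilage, 6 of 7 regions within 1 kb of a listed start were higher, while most regions elsewhere were lower. The regions of all genes followed a similar pattern, as given below. In each sequence the 250 bases before the start are written 5′ to 3′ in the direction of the gene, with CCGG sites in capitals (RefSeq, build GRCm38.p6). Itga1 encodes a collagen receptor chain (chr13:115101965-115102214, minus strand), and both of its sites, 120 and 86 bases before the start, lie inside the region listed there. Itgav encodes the alpha chain of vitronectin receptors (chr2:83724147-83724396, plus strand), and its 4 sites lie inside the listed region.
Itga1: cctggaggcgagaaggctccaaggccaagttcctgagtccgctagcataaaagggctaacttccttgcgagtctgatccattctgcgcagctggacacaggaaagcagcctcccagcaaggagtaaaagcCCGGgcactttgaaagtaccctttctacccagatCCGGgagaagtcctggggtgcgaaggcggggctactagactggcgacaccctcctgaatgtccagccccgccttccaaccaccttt
Itgav: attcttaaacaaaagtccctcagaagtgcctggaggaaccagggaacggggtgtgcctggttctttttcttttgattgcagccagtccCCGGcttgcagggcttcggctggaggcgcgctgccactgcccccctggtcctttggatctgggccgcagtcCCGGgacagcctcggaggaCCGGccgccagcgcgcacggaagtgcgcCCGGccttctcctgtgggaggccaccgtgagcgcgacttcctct

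Itgb1 encodes the beta chain shared by most matrix-binding integrins (chr8:128685404-128685653, plus strand). Its 3 sites lie 183, 153 and 145 bases before the start, and none of them is inside the listed region, which shares 53 bases with this window and runs on into the gene. Itga2b encodes the platelet fibrinogen receptor chain (chr11:102469884-102470133, minus strand). It is shown because its region was the only one within 1 kb of a listed start that was lower in MUT DMM. The single site of the window, 100 bases before the start, is outside that region.
Itgb1: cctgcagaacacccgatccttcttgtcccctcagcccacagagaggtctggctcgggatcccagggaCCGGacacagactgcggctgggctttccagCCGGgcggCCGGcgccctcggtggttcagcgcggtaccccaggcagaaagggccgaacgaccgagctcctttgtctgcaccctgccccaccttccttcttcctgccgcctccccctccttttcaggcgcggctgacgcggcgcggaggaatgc
Itga2b: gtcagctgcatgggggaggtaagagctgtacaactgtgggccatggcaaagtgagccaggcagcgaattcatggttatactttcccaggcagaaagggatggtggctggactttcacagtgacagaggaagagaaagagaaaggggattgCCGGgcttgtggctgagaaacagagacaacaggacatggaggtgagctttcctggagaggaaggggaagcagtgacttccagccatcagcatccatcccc

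CCGG, which reads the same on both strands and was searched with no other motif, occurred in 17 of 26 such windows of integrin and laminin genes (65.4%) and in 47.1% of all 32851 windows in the RefSeq table. The table holds start sites for 23 of the 37 genes.

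Values are the authors' normalized counts per region, which can be compared within 1 comparison only. The 3 entries given for MUT DMM hold only 2 distinct sets of values, so MUT DMM counts as 2 libraries, a deeper and a shallower one. Reads recovered from the normalized values ranged widely. The MUT DMM libraries of the comparison with WT DMM had 5889464 and 407929 reads in all listed regions, and the WT DMM libraries had 52972, 1961515 and 2899132. Among WT DMM libraries the first-listed was close to empty, with 4726 reads in WT DMM against WT sham, where 1 read of it is worth 15.7 normalized counts. It therefore reads 0 at most regions. Its value is shown first among the WT DMM libraries throughout, and counts of calls, of regions without overlap and limma's results are given with and without it. Chondrocyte marker genes had a listed region for 7 of 13 genes in WT DMM against WT sham, 10 in MUT DMM against WT DMM and 11 in MUT DMM against WT sham. Since only regions that differ are listed, and Comp had none, these tables cannot show that a library is cartilage.

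In WT DMM against WT sham cartilage, integrin and laminin regions were mostly listed as higher after DMM, and most were weakly marked. The authors called 63 regions higher and 7 lower, in 29 genes, which is 90.0% higher. Of all 43378 regions of this comparison, 93.2 percent were called higher and 6.53 percent lower (99.7 percent in either direction), so the direction of the integrin and laminin regions is near that of the whole list. The higher regions had a median of 7.48 normalized counts in WT DMM and 2.72 in WT sham, and the lower ones 33.3 in WT DMM and 56.9 in WT sham. Direction went with level. The WT sham mean enters both, and only differing regions are listed, so this describes the list and is no test. All 60 regions with a WT sham mean under 10 were higher, as were 37986 of 37989 such regions in the whole list. Of the 10 at or above this level 3 were higher and 7 lower, and in the whole list 2421 were higher and 2830 lower (46.1% higher). Without the near-empty library 63 integrin and laminin regions were higher and 7 lower, and with the deepest (third-listed) WT DMM library left out, 48 were higher and 22 lower. Fewer cells carrying the mark and less 5hmC per cell cannot be told apart in these bulk samples.

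By gene, 23 integrin and laminin genes had only higher regions, Itgb4 and Lamb2 had only lower ones, and 4 had both. No region was listed for 8 genes, among them Itga5 of the fibronectin receptor, Itga10 of a cartilage collagen receptor, and Itgae and Itgax of leukocytes.

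**Figure D1:**
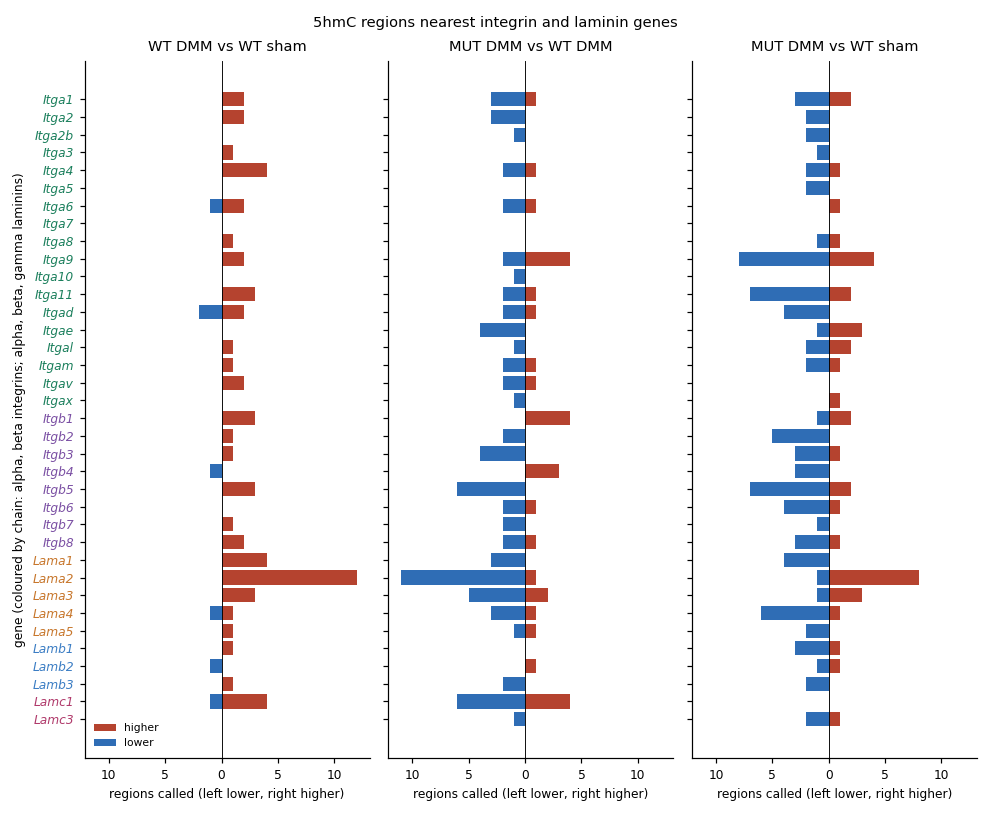
Regions called by the authors at an adjusted p under 0.05 for integrin and laminin genes, with higher regions to the right of the line and lower regions to the left, in 3 comparisons. Lama2 had 12 higher and 0 lower regions in WT DMM against WT sham, 1 higher and 11 lower in MUT DMM against WT DMM, and 8 higher and 1 lower in MUT DMM against WT sham.

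Few of these calls exceeded the spread between libraries when the near-empty library was kept. WT DMM and WT sham libraries did not overlap at 1 higher and 2 lower regions (background 0.994 percent and 1.71 percent). The lower ones lie inside Itgb4 and outside Lama4, and their values are given with their chains. limma called 0 of the 70 regions, with 0 at an unadjusted p under 0.05, and 0.0161 percent of all regions. Without the near-empty library, the libraries did not overlap at 57 higher and 2 lower regions (background 79.5 percent and 2.02 percent), and limma called 55 higher and 1 lower (background 75.9 percent and 1.87 percent). The near-empty library had 0 reads at 61 of the 63 higher and 5 of the 7 lower regions.

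The integrin alpha chains gave 23 higher and 3 lower regions. The higher ones had library medians of 0, 8.0 and 12.5 normalized counts in WT DMM and 2.56, 3.58 and 1.71 in WT sham. At the leading higher region, inside Itga1 (chr13:115017441-115017720), WT DMM libraries had 0, 10.7 and 15.6 normalized counts and WT sham libraries 1.6, 4.29 and 2.05. Both WT DMM libraries with usable depth lay above WT sham, and the near-empty one lay below it. The log2 difference in limma was 0.74 ± 1.44 (SE, adjusted p = 1.0) with all libraries, and 2.0 ± 0.48 (limma adjusted p = 0.0187) without the near-empty one. Itga4, which encodes a chain that binds fibronectin and VCAM1, had 4 higher regions and no lower one.

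The lower alpha chain regions were in Itga6 and Itgad. Itga6 encodes a laminin receptor chain, and its region (chr2:71787561-71787780) had 0, 62.7 and 25 normalized counts in WT DMM and 50.6, 45.8 and 52.5 in WT sham. The 2 deeper WT DMM libraries fell on either side of WT sham. limma's adjusted p was 1.0 with all libraries and 0.496 without the near-empty one. Both Itgad regions had the same form, with a WT DMM library at 0, another below WT sham and the deepest above the WT sham mean (limma adjusted p = 1.0 for each with all libraries, and 0.535 and 0.544 without the near-empty one).

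The integrin beta chains gave 11 higher and 1 lower region. Itgb2, the leukocyte beta chain, led the higher ones (chr10:77564201-77564400), with 0, 6.67 and 16.7 normalized counts in WT DMM and 1.28, 3.58 and 1.37 in WT sham (limma adjusted p = 1.0 with all libraries and 0.0187 without the near-empty one). The lower region lies inside Itgb4, which encodes the partner of Itga6 in hemidesmosomes (chr11:116005821-116006160). It had 0, 80.0 and 65.6 normalized counts in WT DMM and 82.3, 80.1 and 82.7 in WT sham. No WT DMM library reached WT sham there, but the second-listed one came within a fraction of a normalized count of it. The limma adjusted p was 1.0 with all libraries and 0.563 without the near-empty one.

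Itgb1 and Itgb5, the beta chain of a vitronectin receptor, each had 3 higher regions, and each had 1 at a higher level than the rest. Behind Itgb1 (chr8:128749121-128749400), WT DMM libraries had 0, 40 and 72.9 normalized counts and WT sham libraries 26.6, 25.8 and 18.6. Inside Itgb5 (chr16:33896841-33897060), WT DMM libraries had 15.7, 34.7 and 39.6 and WT sham libraries 20.8, 23.6 and 17.9. At both, the libraries overlapped only through the near-empty library, whose value in Itgb5 is a single read. Without it, limma's adjusted p was 0.0285 behind Itgb1 and 0.0864 in Itgb5, and with it 1.0 at both.

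The laminin alpha chains gave 21 higher regions and 1 lower one, and 12 of the higher ones belong to Lama2, the alpha chain of muscle and nerve laminin. The leading region by the authors' p lies outside Lama1 (chr17:67829441-67829680), with 0, 8.0 and 18.7 normalized counts in WT DMM and 1.92, 2.15 and 2.05 in WT sham (limma adjusted p = 1.0 with all libraries and 0.0187 without the near-empty one). The only lower region lies outside Lama4, an alpha chain of vessel walls, 29196 bases from the gene by the authors' annotation (chr10:38932941-38933320). It had 78.4, 108 and 61.4 normalized counts in WT DMM (82.6 ± 23.6, SD, n = 3) and 189, 127 and 200 in WT sham (172 ± 39.3, SD, n = 3). Every WT DMM library was below every WT sham library. The limma log2 difference was -1.06 ± 0.63 (SE, adjusted p = 1.0), and it was -1.04 ± 0.29 (limma adjusted p = 0.0187) without the near-empty library.

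The laminin beta and gamma chains gave 8 higher and 2 lower regions, of which 2 higher and 1 lower were in beta chain genes. Lamb1, found in most basement membranes, led with 0, 9.34 and 11.4 normalized counts in WT DMM and 2.56, 4.29 and 2.22 in WT sham (chr12:31290441-31290720, limma adjusted p = 1.0 with all libraries and 0.0189 without the near-empty one). Lamb2, the beta chain of the neuromuscular junction and the kidney filter, was lower 2099 bases after its start (chr9:108481961-108482180), with 0, 49.4 and 25 in WT DMM and 44.2, 40.1 and 45.1 in WT sham. The WT DMM libraries there lay on both sides of WT sham (limma adjusted p = 1.0 with all libraries and 0.514 without the near-empty one).

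Lamc1, the most widely used gamma chain, had 4 higher regions and 1 lower one. The lower one (chr1:153332361-153332620) had 62.7, 52.0 and 30.2 normalized counts in WT DMM and 42.6, 109 and 110 in WT sham. One WT sham library lay among the WT DMM values, so the groups overlapped (limma adjusted p = 1.0 with all libraries and 0.0609 without the near-empty one). The leading higher one (chr1:153232321-153232600) had 0, 4.00 and 25 in WT DMM and 3.52, 2.86 and 3.08 in WT sham, and its direction rests on the third-listed WT DMM library: the log2 difference without it was -0.47. limma's adjusted p there was 1.0 with all libraries and 0.0514 without the near-empty one.

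**Figure D2:**
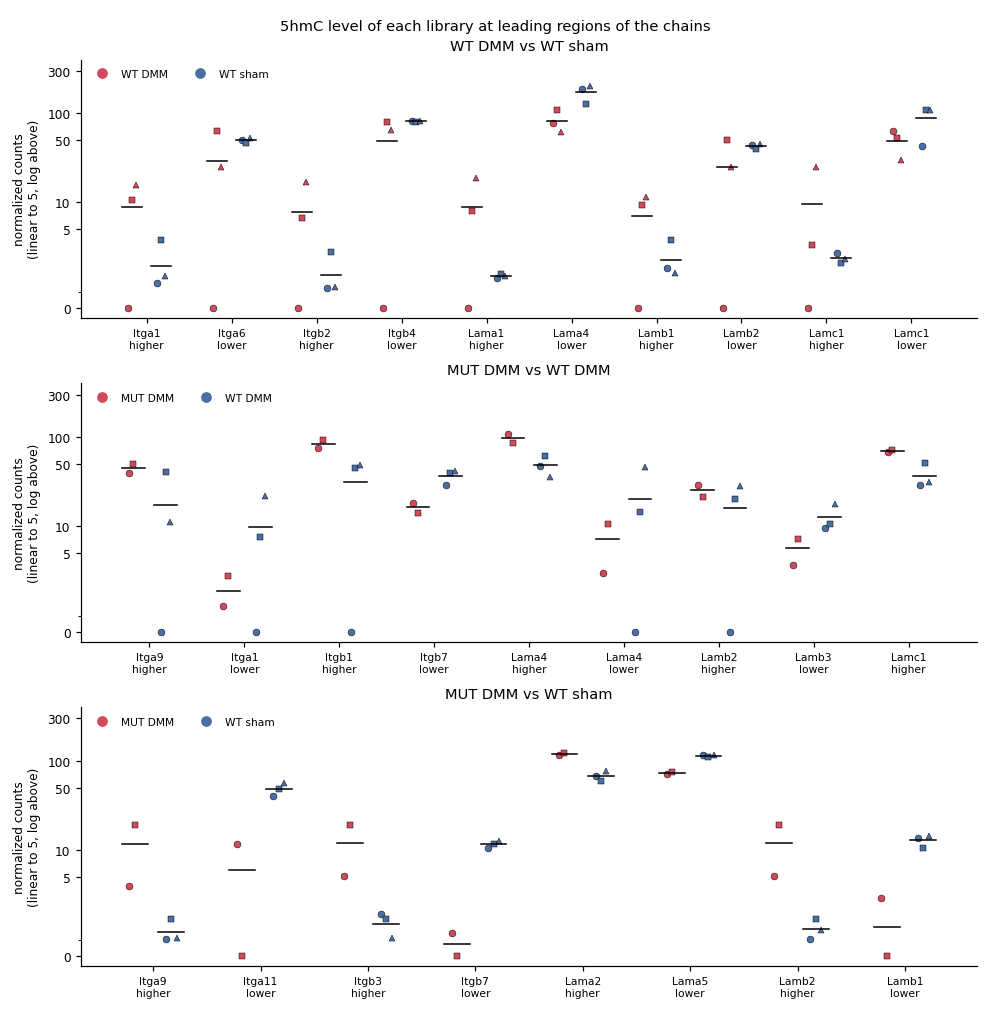
Normalized counts of each library (points; linear to 5 and logarithmic above) and group means (bars) at leading higher and lower regions of the chains in 3 comparisons, with marker shape giving the listed order. The first-listed WT DMM library sits at 0 in 8 of 10 regions of the top panel, while both MUT DMM libraries lie above all WT sham libraries at the Lama2 region of the bottom panel.

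In MUT DMM against WT DMM cartilage, most listed regions were lower. Most of them are other places than those listed in WT DMM against WT sham, so the counts do not follow the same regions. The authors called 30 integrin and laminin regions higher and 82 lower, in 32 genes, out of 113 listed, so 26.8% of the calls were higher. Of all 65969 regions of this comparison, 34.2 percent were called higher and 64.7 percent lower (98.9 percent in either direction). The median of the higher regions was 33.5 normalized counts for MUT DMM against 18.2 for WT DMM. The median of the lower regions was 2.48 for MUT DMM against 8.21 for WT DMM. Level again went with direction: of 56 regions with a WT DMM mean under 10, 4 were higher and 52 lower (7.14% higher). Of 56 at or above it, 26 were higher and 30 lower (46.4% higher). Over all called regions of this comparison the shares were 16.6% of 32428 and 52.4% of 32821, so the whole list had a similar split. The WT DMM mean also enters the direction, so this too is description only. Itgb1, Itgb4 and Lamb2 had only higher regions, 14 genes had only lower ones and 15 had both. Without the near-empty library 28 regions were higher and 84 lower, and with the third-listed WT DMM library left out, 46 were higher and 66 lower.

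MUT DMM and WT DMM libraries did not overlap at 18 higher and 27 lower regions (background 22.9 percent and 18.5 percent). Without the near-empty WT DMM library they did not overlap at 19 higher and 73 lower regions (background 24.2 percent and 52.9 percent). limma called 0 of the 113 regions and 0 percent of the list, with 4 at an unadjusted p under 0.05. Without the near-empty library it called 4 higher and 15 lower (background 5.84 percent and 9.88 percent). The lower calls rest on few reads, since the shallower MUT DMM library had 0 or 1 read at 52 of the 82 lower regions, and 1 such read is worth 3.55 normalized counts.

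**Figure D3:**
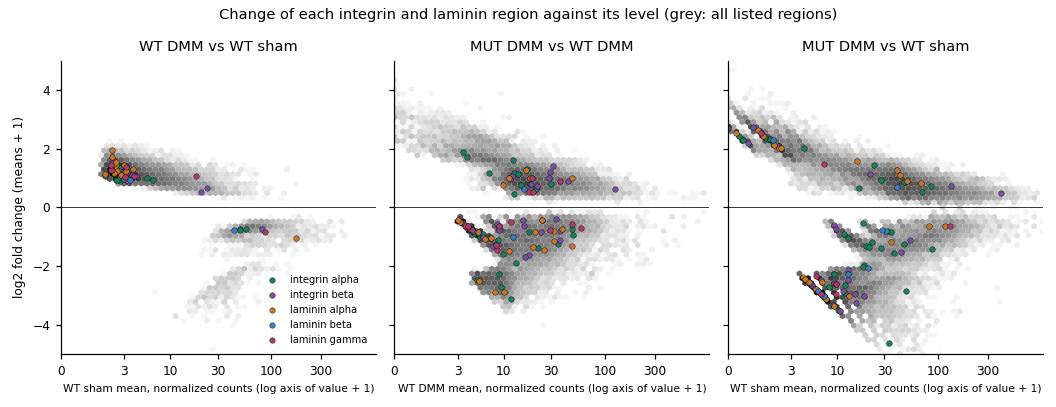
Log2 fold change of the group means plus 1 normalized count (y axis) against the mean of the second-named group (x axis, logarithmic in the value plus 1) for integrin and laminin regions (coloured by chain) over all listed regions (grey) in 3 comparisons. In WT DMM against WT sham, the 60 coloured regions with a WT sham mean under 10 all lie above the line. The mean of the second-named group enters both axes.

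Position relative to the start site went with direction in MUT DMM against WT DMM. Within 1 kb of a listed start were 7 integrin and laminin regions, of which 6 were higher and 1 was lower (85.7% higher), against 12 higher and 44 lower farther away (21.4%). Over all genes the same shares were 77.2% of 4806 regions within 1 kb and 27.8% of 30472 farther away, so integrins and laminins followed the pattern of the whole list. Without the near-empty library the integrin and laminin counts were the same, and the shares over all genes were 75.9% and 27.1%. Among regions with a WT DMM mean of at least 10 the shares were 85.7% within 1 kb and 34.6% farther for integrins and laminins, and 85.3% and 44.4% for all regions. In WT DMM against WT sham and in MUT DMM against WT sham, 0 of 43 and 0 of 83 integrin and laminin regions with a listed start lay within 1 kb of it. Regions of genes with no listed start are outside these counts, and some of them lie near a RefSeq gene bound. The Itga6 bounds begin at 71786886 on chromosome 2, close to a region from 71787561 in WT DMM against WT sham and one from 71787141 in MUT DMM against WT sham. The Lamc1 bounds end at 153332786 on chromosome 1, close to a region to 153332620 in WT DMM against WT sham.

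The sequences given above are those of 4 such start sites. At the Itga1 start (chr13:115101981-115102200), MUT DMM libraries had 21.8 and 14.2 normalized counts and WT DMM libraries 19.1, 10.5 and 8.52, so the groups overlapped, through the near-empty library alone. At the Itgav start (chr2:83724001-83724380), MUT DMM libraries had 54.5 and 49.8 and WT DMM libraries 0, 58.7 and 30.4, and the second-listed WT DMM library was above both MUT DMM libraries. At the Itgb1 start (chr8:128685601-128686060), MUT DMM libraries had 70.7 and 67.5 and WT DMM libraries 0, 58.7 and 29.8, with no overlap. A second Itgb1 region beginning 447 bases after the start had 25.5 and 21.3 in MUT DMM and 0, 21.8 and 12.8 in WT DMM, and these overlapped. At the Itga2b start (chr11:102470041-102470420), MUT DMM libraries had 5.62 and 0 and WT DMM libraries 9.56, 15.0 and 15.2, again without overlap.

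The remaining start regions belong to Itga4 and Lama5, an alpha chain of most adult basement membranes. Itga4 (chr2:79255401-79255660) had 30.4 and 28.4 normalized counts in MUT DMM and 0, 24.1 and 14.0 in WT DMM, without overlap. Lama5 (chr2:180225621-180225960) had 40.7 and 35.5 in MUT DMM and 0, 41.4 and 14.0 in WT DMM, with overlap. Of the 7 regions, limma called 0 with all libraries and 1 without the near-empty library, the lower one of Itga2b (log2 difference -2.65 ± 0.95, SE, limma adjusted p = 0.0403). The near-empty library held 0 reads at 5 of the 6 higher ones. The RefSeq bounds of Itga9 begin at 118606709 on chromosome 9, close to a higher region from 118607241, but this start is not in the promoter table and is not counted here. Lamc1 has no listed start, so its higher region to 153332580, close to its RefSeq bound at 153332786, is not counted either.

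**Figure D4:**
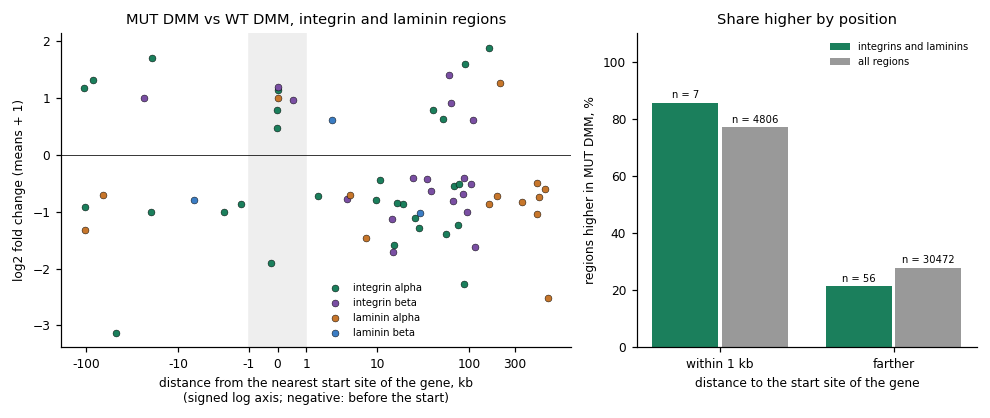
Left, log2 fold change of integrin and laminin regions in MUT DMM against WT DMM by distance from the nearest start site in the RefSeq promoter table (signed logarithmic axis, grey band within 1 kb). Right, share of regions higher in MUT DMM, which was 85.7% of 7 integrin and laminin regions and 77.2% of 4806 regions overall within 1 kb of a start.

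Among integrin alpha chains, 11 regions were higher and 28 lower in MUT DMM against WT DMM. Library medians of the lower ones were 1.40 and 3.55 normalized counts in MUT DMM and 0, 7.52 and 10.3 in WT DMM. The leading higher region is inside Itga9, a receptor chain for tenascin and osteopontin (chr9:118626521-118626780). MUT DMM libraries had 39.1 and 49.8 there and WT DMM libraries 0, 40.6 and 11.0, so they overlapped at the second-listed WT DMM library. limma's adjusted p was 0.675 with all libraries and 0.0492 without the near-empty one. The leading lower region is inside Itga1 (chr13:115086021-115086400), with 1.64 and 3.55 in MUT DMM (7 reads and 1 read) and 0, 7.52 and 21.9 in WT DMM. The groups overlapped through the near-empty library, and limma did not call the region with that library or without it (adjusted p = 0.978 and 0.0980). Another lower region of Itga1, chosen after its values were seen (chr13:115024761-115025040), had 18.0 and 10.7 in MUT DMM and 38.2, 36.9 and 30.4 in WT DMM, with each MUT DMM library below each WT DMM library (limma adjusted p = 0.675 with all libraries and 0.0481 without the near-empty one). The collagen receptor gene Itga10 (chr3:96647201-96647560) had its only region here, with 28.5 and 28.4 in MUT DMM and 28.7, 56.4 and 58.4 in WT DMM (limma adjusted p = 0.715 with all libraries and 0.0332 without the near-empty one).

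Itga11, the collagen receptor chain of fibroblasts, had 4 listed regions, of which 1 was higher, 2 were lower and 1 did not pass the authors' threshold. Of Itgae, Itgal, Itgam, Itgax and Itgad, alpha chains found on leukocytes, Itgae had 4 lower regions, Itgal and Itgax had 1 each, and none of these 3 had a higher one. Itgam and Itgad each had 1 higher and 2 lower regions. MUT DMM was above WT DMM without overlap at both higher ones, with 15.9 and 14.2 in MUT DMM and 0, 7.52 and 4.26 in WT DMM at Itgam, and with 32.3 and 32.0 in MUT DMM and 0, 13.5 and 28.6 in WT DMM at Itgad. Each Itgae region was at or under 3.55 normalized counts in both MUT DMM libraries and under 11 in the 3 WT DMM libraries.

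Among integrin beta chains, 9 regions were higher and 18 lower. Itgb7, the beta chain of gut-homing lymphocytes, had the lowest p of the integrin and laminin regions in this comparison (chr15:102216821-102217300, adjusted p = 2.66e-07 in the authors' deposited table). MUT DMM libraries had 18.2 and 14.2 normalized counts there (78 and 4 reads) and WT DMM libraries 28.7, 39.1 and 41.4 (3, 52 and 68 reads). The groups did not overlap, and the near-empty library lay with the other WT DMM libraries. The limma log2 difference was -1.11 ± 0.73 (SE, adjusted p = 0.675), and it was -1.27 ± 0.41 (limma adjusted p = 0.0239) without that library. The other Itgb7 region was also lower without overlap (limma adjusted p = 0.675 with all libraries and 0.0510 without that one).

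Itgb1 had 4 higher regions and no lower one, 2 at its start and 2 behind the gene. The strongest (chr8:128747001-128747560) had 76.0 and 92.4 normalized counts in MUT DMM and 0, 45.1 and 48.1 in WT DMM, and each MUT DMM library exceeded each WT DMM library. limma gave a log2 difference of 0.83 ± 0.30 (SE, adjusted p = 0.0415) without the near-empty library, and an adjusted p of 0.675 with it. Itgb4 had 3 higher regions, and the libraries did not overlap at any of the 3. The first (chr11:115979921-115980200) had 41.9 and 32.0 in MUT DMM and 19.1, 26.3 and 20.1 in WT DMM (limma adjusted p = 0.691 with all libraries and 0.198 without the near-empty one). Itgb5, in contrast, had 6 lower regions and none higher, and Itgb3, the beta chain of platelet and osteoclast integrins, had 4 lower and none higher. With all libraries the groups overlapped at 3 of the 4 Itgb3 regions and 6 of the 6 Itgb5 regions. Without the near-empty library they overlapped at 1 of the 4 and 0 of the 6.

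The laminin alpha chains gave 5 higher and 23 lower regions. At the same place outside Lama4 (chr10:38932941-38933340), MUT DMM libraries had 109 and 85.3 normalized counts (97.0 ± 16.6, SD, n = 2) and WT DMM libraries 47.8, 60.9 and 35.9 (48.2 ± 12.5, SD, n = 3). Both MUT DMM libraries were above all 3 WT DMM libraries, and the near-empty one, with 5 reads, lay between the other two. limma's log2 difference was 1.02 ± 0.57 (SE, adjusted p = 0.675), and 1.03 ± 0.30 (limma adjusted p = 0.00963) without that library. A neighbouring Lama4 region (chr10:38933581-38934060) was lower, with 3.74 and 10.7 in MUT DMM and 0, 14.3 and 45.7 in WT DMM. The groups overlapped through the near-empty library, with a limma adjusted p of 0.978 with it and 0.0264 without it, and leaving out the third-listed one gave a log2 difference of the means of 0.01.

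The laminin beta chains gave 1 higher and 2 lower regions. Lamb2 was higher 2679 bases after its start (chr9:108482541-108482780), with 29.2 and 21.3 normalized counts in MUT DMM and 0, 20.3 and 28.0 in WT DMM. The third-listed WT DMM library there was above the shallower MUT DMM library (limma adjusted p = 0.691 with all libraries and 0.891 without the near-empty one). Lamb3, a chain of epithelial laminin, was lower (chr1:193332421-193332700), with 4.21 and 7.11 in MUT DMM and 9.56, 10.5 and 17.6 in WT DMM. These groups did not overlap (limma adjusted p = 0.723 with all libraries and 0.235 without the near-empty one).

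The laminin gamma chains gave 4 higher and 11 lower regions. Inside Lamc1 (chr1:153332161-153332580), MUT DMM libraries had 67.8 and 71.1 normalized counts and WT DMM libraries 28.7, 51.1 and 31.1, without overlap. It did not pass limma with all libraries (adjusted p = 0.675) or without the near-empty one (adjusted p = 0.0640). Lamc3 had 1 region, which was lower.

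In MUT DMM against WT sham cartilage, which differ in both genotype and surgery, the authors called 41 integrin and laminin regions higher and 89 lower, in 33 genes. That is 31.5% higher. Of all 72486 regions of this comparison, 43.2 percent were called higher and 56.1 percent lower (99.3 percent in either direction). MUT DMM and WT sham libraries did not overlap at 37 higher and 81 lower regions (background 32.5 percent and 49.1 percent). limma called 13 higher and 67 lower (background 8.19 percent and 39.0 percent, 47.2 percent in either direction), and these 80 calls became 52, 49 and 51 with the WT sham libraries left out in listed order. Itga10, Itga7, Itgav and Lamc1 had no region.

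Many lower regions are ones at which MUT DMM gave no read. Both MUT DMM libraries held 0 reads at 43 of the 89 lower regions, in 22 genes, and these 43 are among the 67 that limma called. They make up 33.1% of the integrin and laminin regions, and 21.1% of all listed regions were of this kind. WT sham means there ran between 4.18 and 10.6 normalized counts. Against a floor of 3 reads in the deeper MUT DMM library (2.21 normalized counts), MUT DMM was at least 1.89-fold to at least 4.82-fold lower, with a median of at least 2.85-fold. One read of the shallower library is worth 9.45 normalized counts, so that library could hardly have shown a level of this size. With regions under 10 normalized counts in both groups left out, limma called 0 of the remaining 71, with 31 at an unadjusted p under 0.05. Over the whole list it called 0 of 49140 under this filter. Each region named below as passing limma in this comparison had a group mean of at least 10. None of them therefore passed with the filter, and their limma calls depend on the low regions of the list.

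The higher regions also include many with few reads. At 25 of 41 the shallower MUT DMM library had 1 or 2 reads. The library medians of the higher regions were 4.42 and 18.9 normalized counts in MUT DMM and 2.12, 2.32 and 1.94 in WT sham.

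Integrin alpha chains gave 18 higher and 37 lower regions in MUT DMM against WT sham. Itga9 had 4 higher and 8 lower, and Itga11 2 higher and 7 lower. The leading lower region lies behind Itga11 (chr9:62786681-62787320), with 11.8 and 0 normalized counts in MUT DMM (16 and 0 reads) and 40.8, 48.6 and 56.9 in WT sham. MUT DMM was below every WT sham library there, and the region fell by limma's test (log2 difference -3.79 ± 1.08, SE, adjusted p = 0.0342). Inside Itga3, a laminin receptor chain, the level fell to 10.3 and 9.45 in MUT DMM, against 27.0, 23.1 and 32.2 in WT sham (chr11:95053181-95053440, limma adjusted p = 0.0411). The 9.45 there is 1 read of the shallower MUT DMM library.

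Of the 18 higher alpha chain regions, 7 passed limma, and 5 of these had at most 3 reads in either MUT DMM library. The other two are in Itga1 and Itgae. Inside Itga1 (chr13:114996801-114997220), MUT DMM libraries had 55.2 and 75.6 normalized counts and WT sham libraries 23.3, 28.9 and 18.6 (limma log2 difference 1.44 ± 0.37, SE, adjusted p = 0.0244). Inside Itgae, the chain that binds E-cadherin, MUT DMM libraries had 127 and 151 and WT sham libraries 95.5, 75.2 and 82.4 (chr11:73120381-73120620, limma adjusted p = 0.0465). At both, MUT DMM libraries were above all WT sham libraries. The leading higher alpha chain region, in Itga9 (chr9:118641161-118641500), had 4.42 and 18.9 in MUT DMM and 1.06, 2.32 and 1.11 in WT sham, which is 6 and 2 reads in MUT DMM.

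Integrin beta chains gave 7 higher and 27 lower regions. Itgb2 had 5 lower and none higher, and Itgb5 had 2 higher and 7 lower. At the lower Itgb5 region with the most MUT DMM reads, 41 and 2 (chr16:33832241-33832500), the level fell to 30.2 and 18.9 normalized counts in MUT DMM, against 57.3, 56.7 and 47.7 in WT sham (limma log2 difference -1.14 ± 0.35, SE, adjusted p = 0.0424). The leading lower region, in Itgb7 (chr15:102219781-102220160), had 1.47 and 0 in MUT DMM and 10.6, 11.6 and 12.5 in WT sham (limma adjusted p = 0.0116), which rests on 2 and 0 reads in MUT DMM. Itgb3 led the higher ones with 5.15 and 18.9 in MUT DMM and 2.65, 2.32 and 1.11 in WT sham (chr11:104644701-104644980), and it did not pass limma (adjusted p = 0.0646).

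Laminin alpha chains gave 12 higher and 14 lower regions. Lama5 had the lowest p among integrin and laminin regions of this comparison (chr2:180215961-180216340, adjusted p = 2.06e-06 in the authors' deposited table). Its level fell to 70.7 and 75.6 normalized counts in MUT DMM (73.1 ± 3.46, SD, n = 2), against 116, 112 and 118 in WT sham (115 ± 2.94, SD, n = 3). The groups did not overlap, and limma gave a log2 difference of -0.65 ± 0.21 (SE, adjusted p = 0.0459). The 75.6 of the shallower MUT DMM library rests on few reads, since 1 read of it is worth 9.45 normalized counts. The small SD of MUT DMM therefore understates its uncertainty. Lama1 had 4 lower regions and Lama4 6 lower and 1 higher.

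Lama2 had 8 higher regions and 1 lower one in MUT DMM against WT sham. The leading one (chr10:27407641-27408020, inside the gene) had 118 and 123 normalized counts in MUT DMM (160 and 13 reads) and 67.3, 59.0 and 77.1 in WT sham (127, 51 and 278 reads). Both MUT DMM libraries were above all WT sham libraries, with a limma log2 difference of 0.83 ± 0.24 (SE, adjusted p = 0.0349). A second (chr10:27582561-27582940) had 70.7 and 123 in MUT DMM and 35.0, 42.8 and 41.3 in WT sham (limma adjusted p = 0.0323).

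Lama2 is the longest of the 37 genes in the RefSeq table, at 635907 bases (chr10:26981285-27617191, minus strand). Its regions lie along the gene and beyond both of its ends, up to 130420 bases in front of it. In WT DMM against WT sham its largest difference was 4822 bases after a start (chr10:27611821-27612120), with 0, 16.0 and 16.7 normalized counts in WT DMM and 1.92, 2.86 and 1.37 in WT sham (limma adjusted p = 1.0 with all libraries and 0.0187 without the near-empty one). In MUT DMM against WT DMM, a region in front of the gene (chr10:27719681-27720100) had 19.4 and 17.8 in MUT DMM and 38.2, 40.6 and 64.5 in WT DMM, without overlap (limma adjusted p = 0.00469 without the near-empty library and 0.675 with it).

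**Figure D5:**
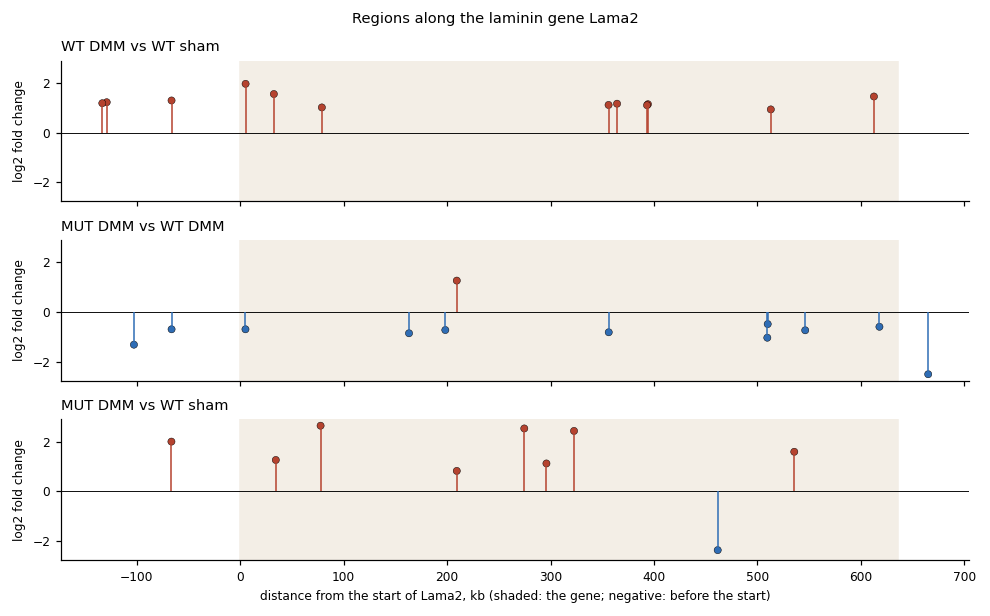
Log2 fold change of each Lama2 region (y axis) by distance from the start of the gene in kb (x axis, gene shaded) in 3 comparisons, red for higher and blue for lower. There are 12 red regions in WT DMM against WT sham, 11 blue and 1 red in MUT DMM against WT DMM, and 8 red and 1 blue in MUT DMM against WT sham.

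The laminin beta chains gave 2 higher and 6 lower regions in MUT DMM against WT sham, and the gamma chains 2 higher and 5 lower. Lamb1 fell to 3.68 and 0 normalized counts in MUT DMM, against 13.8, 10.4 and 14.4 in WT sham (chr12:31270781-31271060, limma adjusted p = 0.0398). In MUT DMM, 1 read is worth 0.736 normalized counts in the deeper library and 9.45 in the shallower one. The Lamb1 values of MUT DMM therefore rest on few reads. Lamb2 rose to 5.15 and 18.9 in MUT DMM, against 1.06, 2.32 and 1.66 in WT sham (chr9:108487181-108487400, limma adjusted p = 0.0471), on 7 and 2 reads in MUT DMM.

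Several places were listed in more than 1 comparison. There were 25 such places in exactly 2 comparisons and 2 in all 3, in 16 genes, and since each pair of comparisons shares libraries, their values are given side by side only. Outside Lama4, the WT DMM level was below WT sham in the first comparison and below MUT DMM in the second, on the same 5, 81 and 59 WT DMM reads. Inside Lamc1, the regions from 153332361 and 153332161 had the same arrangement, with the WT DMM mean below the means of both WT sham and MUT DMM. Inside Itgb5 the arrangement was turned round. WT DMM averaged 30 ± 12.6 normalized counts and WT sham 20.8 ± 2.84 (SD, n = 3 each) from 33896841, and MUT DMM averaged 20.6 ± 1.02 (SD, n = 2) and WT DMM 36.9 ± 15.8 (SD, n = 3) from 33896741.

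Behind Itgb8, a beta chain that activates TGF-beta, a strongly marked region was higher in MUT DMM in both comparisons (chr12:119128361-119128580). Against WT DMM it had 191 and 195 normalized counts in MUT DMM and 66.9, 184 and 125 in WT DMM. Against WT sham it had 601 and 520 in MUT DMM and 276, 430 and 500 in WT sham. The MUT DMM libraries lay above the others in each, by a narrow margin, and neither passed limma (adjusted p = 0.675 against WT DMM, 0.296 without the near-empty library, and 0.136 against WT sham). The MUT DMM libraries and their 816 and 55 reads are the same in both.

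The places listed in all 3 comparisons belong to Lama2 and Lama4. The Lama2 place lies in front of the gene, from 27683401 on chromosome 10. It had 0, 12 and 9.37 normalized counts in WT DMM and 2.56, 2.86 and 1.54 in WT sham, 0.700 and 3.55 in MUT DMM and 0, 6.77 and 5.48 in WT DMM, and 3.68 and 18.9 in MUT DMM and 1.06, 3.47 and 1.66 in WT sham. The deeper MUT DMM library there barely exceeded the highest WT sham library, and the 18.9 of the shallower one is 2 reads. The Lama4 place is a chain of regions that overlap in part. The region of WT DMM against WT sham (chr10:38934041-38934340) had 0, 10.7 and 15.6 in WT DMM and 1.92, 5.01 and 2.56 in WT sham. The region of MUT DMM against WT sham (chr10:38933581-38933960) had 11.1 and 18.9 in MUT DMM and 32.4, 48.6 and 23.9 in WT sham, and it shares no base with the first, so the groups cannot be ordered over 1 stretch.

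Genes that work with integrins and laminins were listed in the same comparisons. The list of integrin activators and adapters (25 genes such as talins, kindlins, focal adhesion kinase and paxillin) had 39 higher and 7 lower regions in WT DMM against WT sham, 30 higher and 77 lower in MUT DMM against WT DMM, and 28 higher and 92 lower in MUT DMM against WT sham. The basement membrane partners and receptors (16 genes, among them nidogens, perlecan and type IV collagens) had 12 higher and 2 lower, 17 higher and 30 lower, and 17 higher and 48 lower in the same order. The matrix ligands (8 genes, such as fibronectin and osteopontin) had 11 higher and 0 lower, 4 higher and 13 lower, and 3 higher and 11 lower. Of all regions listed in these comparisons, 93.2, 34.2 and 43.2 percent were called higher. The whole list was thus mostly higher in the first comparison and mostly lower in the others. The percent higher was 84.8, 28.0 and 23.3 for activators and adapters. It was 85.7, 36.2 and 26.2 for basement membrane genes, and 100, 23.5 and 21.4 for matrix ligands. Tns3, an adapter that links integrins to actin, had 2 higher and 14 lower regions in MUT DMM against WT DMM. Other genes of these lists differed, since the perlecan gene Hspg2 had 6 higher and 1 lower there and the talin gene Tln2 6 and 7. The fibronectin gene Fn1 had 7 lower and none higher in MUT DMM against WT sham, where Tln2 had 9 higher and 6 lower.

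Markers of other cell types also had listed regions. In WT DMM against WT sham, 7 of 10 endothelial genes had 29 higher and 5 lower regions, 7 of 12 haematopoietic genes had 8 and 2, 6 of 10 skeletal muscle genes had 11 and 2, and 5 of 7 adipocyte genes had 8 and 0. Chondrocyte genes had 17 higher and 2 lower. The counts of higher and lower regions in MUT DMM against WT DMM were 13 and 48 for endothelial, 9 and 16 for haematopoietic, 10 and 8 for skeletal muscle, 3 and 11 for adipocyte and 12 and 21 for chondrocyte genes. In MUT DMM against WT sham they were 22 and 45 for endothelial, 15 and 19 for haematopoietic, 16 and 15 for skeletal muscle, 8 and 6 for adipocyte and 18 and 21 for chondrocyte genes. Over all listed regions, 93.2, 34.2 and 43.2 percent were called higher in these comparisons, in the order given. The part of cell composition in the integrin and laminin differences was not tested.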

How the data were processed

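5hmC was profiled by reduced representation hydroxymethylation profiling in mouse knee cartilage. Per the labels' protocols, libraries had 15 PCR cycles. The labels describe 13 samples, and the 3 deposited tables compare MUT DMM, WT DMM and WT sham. The authors' tools, per the submitters' processing notes, include HISAT2 2.1.0 and, for reads, Trim Galore 0.5.0 and bcl2fastq 2.20.0, besides bedtools and SAMtools, on build mm10. For the calling of regions, the program used is not stated there. Each table lists regions built from windows of 200 bases with a p-value, an adjusted p-value, the nearest gene, the normalized count signal of each library joined in 1 cell and the group means, all deposited by the authors. No listed window has a p above 0.0001, so the tables hold differing regions only and their counts of calls are no test.

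From the deposited values, reads were recovered as whole multiples of the value of 1 read (tolerance 0.02 normalized counts). PCR reads carry no molecular identifiers, so floors of 3 reads cover counting error only. The repeated MUT DMM entry, identical in every region, was counted once, leaving 2 MUT DMM, 3 WT DMM and 3 WT sham libraries. Because values are normalized and preselected, no count model was used. limma 3.58.1 (R 4.3.3, eBayes with trend) was fitted to log2(normalized count + 1) over all regions of a table, with Benjamini-Hochberg adjustment over that table. A check of the fit on simulated data left out low levels, a near-empty library and selection by p. It therefore says nothing about limma's errors under the conditions of these data. Selection by p before deposit means that limma's adjusted p-values are not calibrated for unselected regions. Fold changes of means plus 1 normalized count understate changes at low levels.

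In each comparison and chain, the higher and the lower region with the smallest authors' adjusted p were described in full, except for 1 gene that is counted in the totals but not reported here, with further regions chosen after their values were seen. The genes, lists and comparisons were chosen with earlier results of these data known. Start sites and promoter sequences are RefSeq's (GRCm38.p6, the assembly behind mm10). Alternatives were an adjusted p under 0.01, a 2-fold minimum, a level of at least 10, gene assignment by coordinates, pseudocounts of 0.5 and 4, the entries as deposited and leaving out each library.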

Additional observations from a re-analysis of the deposited data

How the results depend on the processing

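Depth limits values at low levels, since 1 read is worth 15.7 normalized counts in the first-listed WT DMM library against WT sham and 9.45 in the shallower MUT DMM library against WT sham. Signal over background is unknown. In WT DMM against WT sham, 63 higher regions became 7 at a level of at least 10, and 7 lower regions became 1 at a 2-fold minimum. Leaving out 1 library gave 48 to 63 higher and 7 to 22 lower regions, 0 to 56 limma calls (0 with all libraries) and 3 to 59 regions without overlap (3 with all). In MUT DMM against WT DMM, a 2-fold minimum left 13 of 30 higher and 30 of 82 lower regions, and the level filter left 30 lower. Leaving out 1 library gave 28 to 46 higher and 66 to 84 lower regions, 0 to 19 limma calls (0 with all) and 46 to 92 regions without overlap (45 with all). In MUT DMM against WT sham, the level filter left 38 of 89 lower regions, 0 of 80 limma calls and 61 of 118 regions without overlap, and leaving out 1 library gave 49 to 104 limma calls. Of 210 values of the 30 regions with the smallest adjusted p per chain and direction, 194 stayed within the spread between libraries, 14 moved and 2 turned direction, both when the third-listed WT DMM library was dropped. These are the Lamc1 region from 153232321 in WT DMM against WT sham (log2 difference -0.47, and -0.47 to 1.90 over single libraries left out) and the Lama4 region from 38933581 in MUT DMM against WT DMM (0.01, and -2.15 to 0.01). The cause of these 2 turns was not tested. The spread used is the pooled SD of log2 values, which is wide where a library reads 0, so staying within it is a loose criterion. For example, the Itga1 region from 115086021 in MUT DMM against WT DMM stayed within it. Its log2 difference went from -1.59 to -0.4 without the third-listed WT DMM library. Directions near starts without the near-empty library were counted after seeing the data. No paired analysis was possible because the joined values carry no replicate numbers.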
